A study of Rattus norvegicus with 4 samples.

Results

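CD-numbered surface antigens are membrane proteins that were catalogued by the antibodies that bind them, and this section describes the genes whose symbol carries such a number in visceral fat of obese and control rats. Genes whose single symbol in the platform annotation is Cd followed by a digit were taken, with Cd36, Cd68, Cd74, Cd79b, Cd3d and Cd8a left out by the rule. Each gene was represented by its probe set with the highest mean signal, and a gene was kept when at least 2 of the 4 arrays exceeded a floor of 20.8 signal units. This gave 40 genes of 44 candidates, out of 9012 genes measured above the floor. Textbook expression placed 17 of the 40 among antigens limited to leukocytes and 15 among broadly expressed ones, and the other 8 are described separately. These classes were written with earlier results of these data known. Visceral adipose tissue came from male Wistar rats aged 130 days, 2 labelled obese and 2 labelled control, with 1 single-colour oligonucleotide array each. The labels give no cause of the obesity, no diet and no genotype other than the Wistar stock. A title names 1 of the obese samples as a rat, but the labels do not state for each group that its 2 samples came from separate animals and not from a pool. The p-values thus cover the spread between the arrays alone, which may in part be technical.

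Leukocytes carry sets of antigens that mark their lineage. CD4, CD5 and the CD3 chains sit on T cells, CD14 and CD86 on monocytes, macrophages or dendritic cells, and the tetraspanins CD37 and CD53 on nearly all white blood cells. Other numbered antigens, such as the tetraspanins CD9, CD63, CD81 and CD151 or the complement regulator CD59, are made by most cell types, adipocytes and endothelium included. Adipose tissue holds resident macrophages and lymphocytes between its fat cells, and their number is known to change in obesity. In RNA from whole tissue, fewer cells of a type and less RNA per cell cannot be told apart.

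The median signal of the 15866 probe sets that are no controls lay between 75 and 83.1 on the 4 arrays. The log2 signals of 12929 tested probe sets correlated with r = 0.966 between the obese arrays, 0.976 between the control arrays and 0.961 to 0.969 across groups. The tissue label was checked against markers. All 6 adipocyte markers with a probe set lay above the floor, with a summed signal of 8752.1 and 10977.4 in obese tissue and of 8888.1 and 8448.3 in control tissue. Mesothelial markers summed to 1188.8 on obese replicate 1 and to 261.8 on obese replicate 2, against 554.2 and 698.1 on the control arrays. Of 5 epididymal markers listed, 2 had a probe set. Adam7 lay a little above the floor on every array, at 32.4 and 27.5 in obese tissue and 23.7 and 31.5 in control tissue. Defb1 exceeded the floor on 1 array only. With 2 arrays per group, their number limits how precise a value can be.

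Most leukocyte-limited antigens had lower signals in obese tissue, and broadly expressed antigens went both ways. Of the 17 leukocyte-limited members, 14 were lower and 3 higher in obese tissue, with a median log2 difference (obese minus control) of -0.37, where 57.5% of all tested probe sets were lower. Of the 15 broadly expressed members, 7 were lower and 8 higher, with a median of 0.02, which turned to -0.01 with quantile normalization and to -0.05 with cyclic loess. The groups were separated downwards, with the 2 obese signals under the 2 control signals, for 8 of 17 leukocyte-limited genes (47.1%) and 2 of 15 broad genes (13.3%). Of all probe sets in the test, 24.4% were separated in that way. Separation upwards held for 2 leukocyte-limited genes (11.8%), Cd48 and Cd302, and 5 broad genes (33.3%), against 15.6% of all. Centring the arrays on their medians changed the shares over all probe sets to 16.9% downwards and 21.8% upwards, and cyclic loess to 20% and 19.4%. The median over all tested probe sets was -0.04.

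No single gene passed the test. With limma and Benjamini-Hochberg adjustment over 12929 probe sets, 0 of 40 members had an adjusted p under 0.05, and neither did any other probe set (0%). The lowest adjusted p among the members was 0.273, for Cd4. At an unadjusted p under 0.05, 11 of the 40 members were lower and 2 higher in obese tissue, where 5.23% of all probe sets were lower and 3.07% higher at that level. The 11 were 7 leukocyte-limited genes, 1 broad gene and 3 of the remaining genes, Cd52 among them. Separation together with a difference of at least 2-fold was met by 3 members, all lower in obese tissue (Cd300c2, Cd37 and Cd52), against 0.727% of all probe sets in that direction. Cd52 passed the floor only through its control arrays, so its direction in both counts was fixed by the filter. The gap between the medians of the leukocyte-limited and the broad list was -0.39, and no test of it was made. Without single arrays it ranged from -0.58 to -0.27. The 14 leukocyte-limited genes above the floor on every array had a median of -0.56.

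**Figure D1:**
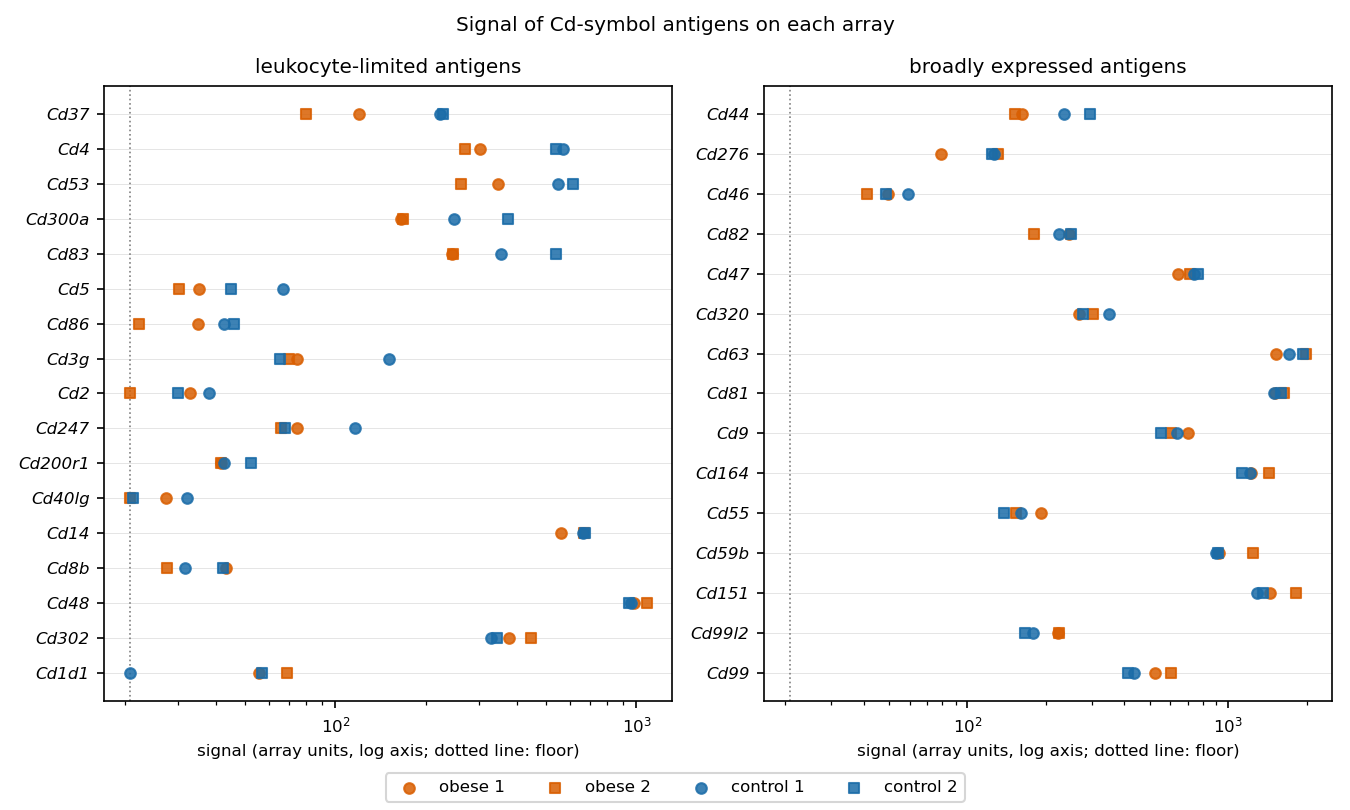
Signal of each leukocyte-limited antigen (left) and broadly expressed antigen (right) on the 2 obese arrays (orange) and the 2 control arrays (blue), on a log axis in array units, with values raised to the floor of 20.8 (dotted line). For 8 leukocyte-limited genes, from Cd37 at the top to Cd86 and also Cd200r1, both orange points lie left of both blue points, while 8 of the 15 broad antigens overlap.

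**Figure D2:**
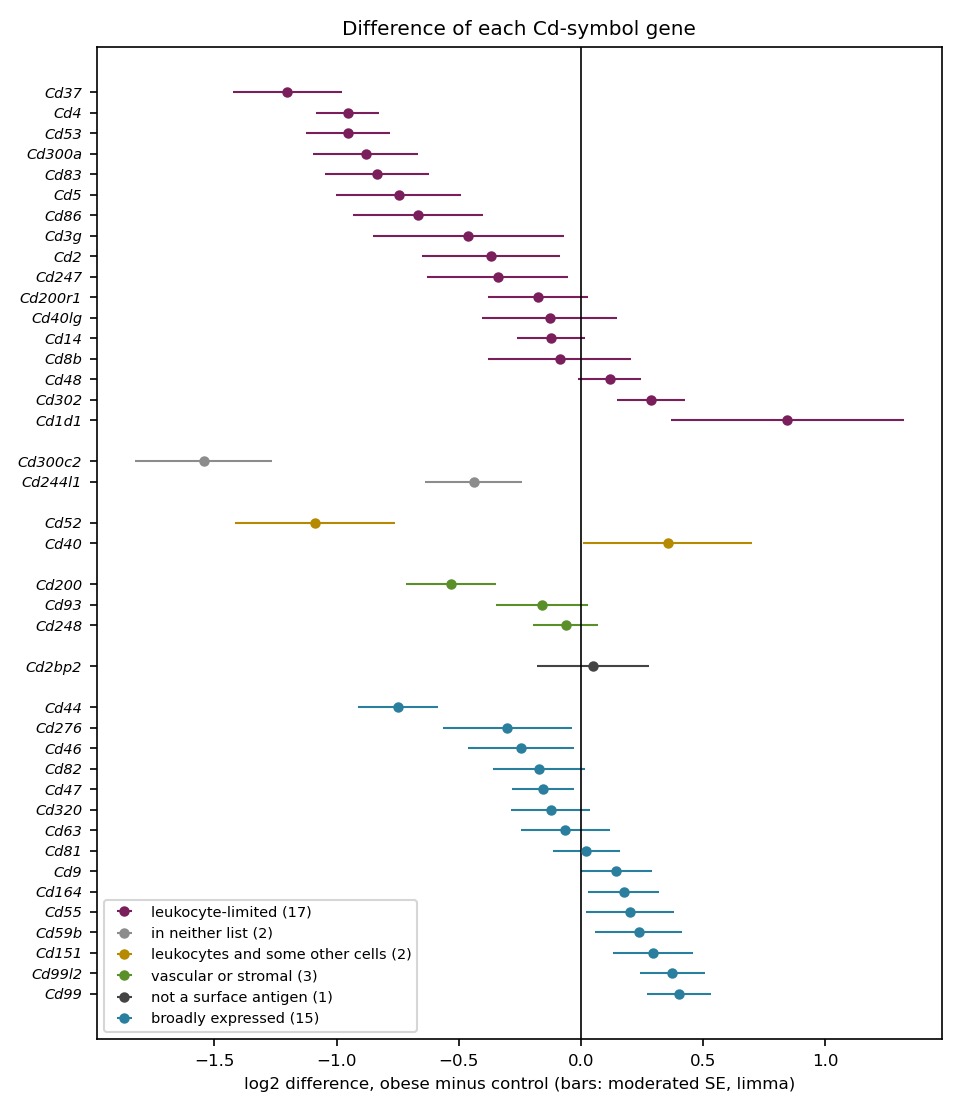
Log2 difference of each of the 40 genes, obese minus control, with the moderated standard error of limma as bars, grouped by the class of the antigen. Leukocyte-limited genes reach from -1.20 for Cd37 to 0.85 for Cd1d1, and broad genes from -0.75 for Cd44 to 0.40 for Cd99.

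Markers of cell types that the tissue holds were read beside this difference. The 5 pan-leukocyte markers without a Cd symbol (Coro1a, Laptm5, Lcp1, Lcp2 and Ptprc) were all lower and separated, with a summed signal of 1102.8 and 1012.8 in obese tissue and of 1933.3 and 2420.5 in control tissue. The 6 macrophage markers summed to 5333.6 and 5000.8 in obese tissue and to 6161.0 and 6884.8 in control tissue, and 5 of them were separated downwards. Of all tested probe sets, 57.5% were lower in obese tissue and 24.4% were separated downwards. The 6 adipocyte markers, whose sums are given above, were all higher in obese tissue on average. Only 1 of them was separated upwards (16.7%), near the 15.6% of all probe sets. The 5 endothelial markers summed to 1282.8 and 1245.3 in obese tissue and to 1269.7 and 1342.9 in control tissue, ranges that overlapped. None of the markers in these lists lay at or under the floor on all arrays. Their part in the difference of the antigens was not tested.

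The tetraspanins, small proteins that cross the membrane 4 times and organise other receptors into microdomains, include both kinds of antigen. Cd37, a tetraspanin of mature lymphocytes and other white blood cells, had signals of 119.8 and 79.6 in obese tissue and of 221.7 and 227.7 in control tissue. The obese arrays were both lower, and the groups did not overlap. Its log2 difference was -1.20 ± 0.22 (SE; limma adjusted p = 0.402), between -1.50 and -0.91 with single arrays left out. Cd53, which is found on nearly all leukocytes, had 346.1 and 261.9 in obese tissue and 550.5 and 616.2 in control tissue. The groups were again separated, and the difference was -0.95 ± 0.17 (limma adjusted p = 0.402).

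The 5 broadly expressed tetraspanins had log2 differences between -0.17 and 0.30. Cd81, a partner of integrins and of the B cell receptor complex, had 1513.4 and 1639.8 in obese tissue and 1501.1 and 1602.3 in control tissue, a difference of 0.02 ± 0.14 whose sign turned to -0.01 with quantile normalization and -0.05 with cyclic loess. Cd63, a protein of late endosomes and lysosomes, had 1525.0 and 1993.6 in obese tissue and 1717.2 and 1933.1 in control tissue (-0.06 ± 0.18, and 0.02 with median centring). Both genes had overlapping groups. Cd9, a tetraspanin of platelets and many epithelia, had 704.7 and 605.6 in obese tissue and 634.0 and 551.4 in control tissue (0.14 ± 0.15). Cd82 had 244.4 and 179.4 in obese tissue and 223.6 and 248.9 in control tissue (-0.17 ± 0.19). These groups overlapped as well. Cd151, which binds laminin-binding integrins, was the only one of the 5 with separated groups, at 1443.5 and 1824.6 in obese tissue and 1287.4 and 1357.2 in control tissue (0.30 ± 0.16, limma adjusted p = 0.683). Without obese replicate 2 its difference was 0.13.

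The DNA before these genes differs in a way the choice of genes did not use, and it is shown for the 6 tetraspanins for which RefSeq's table of the rat build GRCr8 gave a window. Each line holds the 250 bases before the annotated start, 5′ to 3′ on the strand of the gene. Capitals mark GGGCGG, the GC box that binds the factor Sp1, and GAGGAA, the core letters of sites of the leukocyte factor PU.1, both on either strand. Cd37 lies at chr1:104860785-104861034 (minus strand), Cd53 at chr2:197087897-197088146 (minus), Cd9 at chr4:159975359-159975608 (minus), Cd63 at chr7:1921894-1922143 (plus), Cd81 at chr1:207665047-207665296 (plus) and Cd151 at chr1:205994050-205994299 (plus).
Cd37: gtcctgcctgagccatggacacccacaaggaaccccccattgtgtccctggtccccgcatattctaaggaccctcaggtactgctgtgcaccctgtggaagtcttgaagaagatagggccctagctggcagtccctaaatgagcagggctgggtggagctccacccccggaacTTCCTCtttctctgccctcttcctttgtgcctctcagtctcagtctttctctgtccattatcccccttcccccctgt
Cd53: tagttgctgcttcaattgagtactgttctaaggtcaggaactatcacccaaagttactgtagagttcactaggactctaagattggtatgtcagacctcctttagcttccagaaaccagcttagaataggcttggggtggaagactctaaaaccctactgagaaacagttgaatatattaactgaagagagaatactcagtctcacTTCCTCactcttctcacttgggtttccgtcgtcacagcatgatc
Cd9: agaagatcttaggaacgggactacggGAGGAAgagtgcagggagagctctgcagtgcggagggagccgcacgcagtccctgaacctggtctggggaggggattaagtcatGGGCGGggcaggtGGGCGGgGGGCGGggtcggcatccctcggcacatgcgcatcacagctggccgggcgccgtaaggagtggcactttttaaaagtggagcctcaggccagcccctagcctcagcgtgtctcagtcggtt
Cd63: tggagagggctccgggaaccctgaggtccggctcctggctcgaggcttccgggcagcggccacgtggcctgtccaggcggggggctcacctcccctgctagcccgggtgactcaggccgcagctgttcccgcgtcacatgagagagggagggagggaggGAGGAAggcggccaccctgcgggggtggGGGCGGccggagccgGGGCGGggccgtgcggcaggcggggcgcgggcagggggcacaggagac
Cd81: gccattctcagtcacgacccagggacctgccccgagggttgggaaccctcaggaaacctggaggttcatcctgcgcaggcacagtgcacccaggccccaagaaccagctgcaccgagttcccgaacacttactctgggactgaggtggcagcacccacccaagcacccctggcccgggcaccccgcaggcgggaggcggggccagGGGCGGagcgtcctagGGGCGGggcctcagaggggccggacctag
Cd151: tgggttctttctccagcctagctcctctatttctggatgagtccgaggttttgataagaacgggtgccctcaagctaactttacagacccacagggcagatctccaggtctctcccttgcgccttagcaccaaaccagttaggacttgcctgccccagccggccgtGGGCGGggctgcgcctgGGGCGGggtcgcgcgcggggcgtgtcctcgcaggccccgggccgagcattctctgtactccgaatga

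The windows of the leukocyte tetraspanins Cd37 and Cd53 held 2 CpG dinucleotides each, no GC box and 1 GAGGAA match each, whose first base in the window lay 77 and 44 bases before the start. The windows of Cd9, Cd63, Cd81 and Cd151 held 16, 22, 13 and 17 CpG dinucleotides, with 3 GC boxes for Cd9 and 2 for each of the others. Cd9 and Cd63 also held 1 GAGGAA match each. A match is only a run of letters, and no factor was measured here.

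The same contrast ran through the 2 lists. A window was found for 12 of the 17 leukocyte-limited genes and for 13 of the 15 broad genes. The leukocyte-limited windows held a median of 3.5 CpG dinucleotides (2 to 26) and the broad windows a median of 17 (3 to 32), against 6 over the windows of 27457 genes. At least 10 CpG dinucleotides were found in 2 of 12 leukocyte-limited windows (16.7%), those of Cd83 and Cd48, and in 12 of 13 broad windows (92.3%), all but that of Cd320, against 38.4% of all. A GC box was found in 2 of 12 leukocyte-limited windows (16.7%) and 10 of 13 broad ones (76.9%), against 32.4% of all. GAGGAA was found in 7 of 12 leukocyte-limited windows (58.3%) and 4 of 13 broad ones (30.8%), against 23.2% of all. The letters TATAAA, which were also searched, showed no contrast, with 0 of 12 and 0 of 13 windows, against 13.1% of all. The 6 leukocyte-limited genes with a window and separated lower signals had 2.5 CpG dinucleotides in the median, and the remaining 6 had 6.5. The ranges overlapped, at 2 to 26 and 2 to 11. At least 10 CpG dinucleotides were found in 1 window of each 6, and so was a GC box. GAGGAA was found in 4 and 3 windows. Whether these counts go with the difference between obese and control tissue was not tested.

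**Figure D3:**
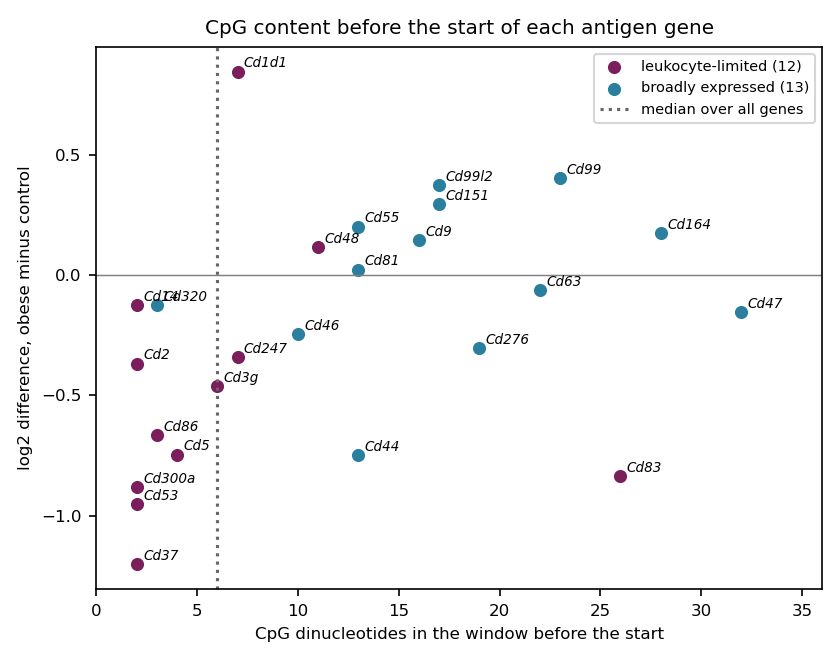
Number of CpG dinucleotides in the 250 bases before the start (horizontal axis) and log2 difference, obese minus control (vertical axis), for 12 leukocyte-limited and 13 broad antigen genes, with the median over all genes as a dotted line. Broad genes except Cd320 have 10 or more, and among the leukocyte-limited genes Cd83 (26) and Cd48 (11) do.

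Besides Cd37 and Cd53, the pan-leukocyte antigens were Cd300a and Cd48. Cd300a, an inhibitory receptor of myeloid and lymphoid cells, had signals of 164.6 and 167.3 in obese tissue and of 248.5 and 375.3 in control tissue, lower on both obese arrays (-0.88 ± 0.22, limma adjusted p = 0.467). Without control replicate 2 its difference was -0.58. Cd48, a lipid-anchored ligand of CD2 and of 2B4, did not go with the others of its list. It had 982.0 and 1080.9 in obese tissue and 957.8 and 942.3 in control tissue, slightly higher on both obese arrays (0.12 ± 0.13, limma adjusted p = 0.843). All 4 differences with single arrays left out lay between 0.05 and 0.19.

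Both genes have a neighbour among the members in the GRCr8 gene order. Cd300c2, a further CD300 family gene that lies 8 protein-coding genes from Cd300a on chromosome 10, had 148.0 and 222.2 in obese tissue and 423.1 and 660.2 in control tissue. The groups were far apart, and this was the largest difference among the members above the floor on all arrays, at -1.54 ± 0.28 (limma adjusted p = 0.402). Cd244l1, which the gene table lists under the synonym 2B4, lies 3 protein-coding genes from Cd48 on chromosome 13. It had 19.6 and 15.9 in obese tissue, both under the floor, and 25.5 and 31.2 in control tissue, which makes obese tissue at least 1.36-fold lower. Its second probe set gave at least 1.42-fold. Cd244l1 was kept only through its control arrays, so a lower value in obese tissue followed from the choice. Neither gene was in a class list, so neither was counted in the lists above.

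T and NK cell antigens were lower in obese tissue for 7 of 7 genes, with a median of -0.37, where 57.5% of all probe sets were lower. Cd4 and Cd5 alone had separated groups, 28.6% of the list against 24.4% of all probe sets. Cd4, the coreceptor of helper T cells that rat macrophages also carry, had signals of 303.2 and 270.1 in obese tissue and of 569.1 and 540.8 in control tissue. Its 2 arrays within each group nearly agreed, and its difference of -0.96 ± 0.13 (limma adjusted p = 0.273) lay between -1.04 and -0.87 with single arrays left out. Cd5, a receptor that dampens T cell signalling, had 35.2 and 30.3 in obese tissue and 66.8 and 44.9 in control tissue (-0.75 ± 0.26, limma adjusted p = 0.555). Leaving out control replicate 1 gave -0.46, and leaving out control replicate 2 gave -1.03.

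The chains of the T cell receptor complex were high on 1 control array only. Cd3g had 74.3 and 70.0 in obese tissue and 150.8 and 65.3 in control tissue, so that control replicate 2 lay below both obese arrays. The zeta chain Cd247 had 74.3 and 66.1 in obese tissue and 116.0 and 67.9 in control tissue, and its second probe set had 66.1 and 37.8 against 95.7 and 50.4. The differences were -0.46 ± 0.39 for Cd3g and -0.34 ± 0.29 for Cd247, and without control replicate 1 they were 0.14 and 0.05. Cd3d, next to Cd3g on chromosome 8, and Cd3e, next to Cd3d, were also highest on control replicate 1. Cd3e, under the floor on 3 arrays and so not kept, had 15.7 and 13.8 in obese tissue and 40 and 13.8 in control tissue. Cd3d, which the rule leaves out, had 28.8 and 23.3 in obese tissue and 77.7 and 26.2 in control tissue.

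The remaining T and NK cell antigens were dim and overlapped. Cd2, an adhesion receptor, had 32.8 and 19.6 in obese tissue and 38.0 and 29.9 in control tissue. The ligand of CD40, Cd40lg, had 27.4 and 19.1 in obese tissue and 32.1 and 21.2 in control tissue. Cd8b, a chain of the coreceptor of cytotoxic T cells, had 43.3 and 27.5 in obese tissue and 31.7 and 42.4 in control tissue. Their differences were -0.37 ± 0.28, -0.13 ± 0.28 and -0.09 ± 0.29, and without obese replicate 2 they were -0.04 for Cd2, 0.07 for Cd40lg and 0.24 for Cd8b. Without obese replicate 1 the difference of Cd2 was -0.70. For the T and NK cell genes together, leaving out control replicate 1 gave a median of -0.20, and leaving out control replicate 2 gave -0.73.

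The order of the arrays within a group differed between the T and NK cell list and the myeloid list. Of the 7 T and NK cell genes, 6 were higher on control replicate 1 than on control replicate 2, the exception being Cd8b, and all 7 were higher on obese replicate 1 than on obese replicate 2. Of the 6 myeloid and antigen-presenting cell genes, all 6 were higher on control replicate 2 than on control replicate 1, and 5 were higher on obese replicate 2, the exception being Cd86. These genes share the 4 arrays and are not independent of each other. Some of the differences between replicates 1 and 2 of a group were small. In log2 signal, they were -0.023 for Cd14 and 0.074 for Cd4 in control tissue. In obese tissue they were -0.003 for Cd200r1, -0.009 for Cd83 and 0.086 for Cd3g. The median signal over all probe sets was 82.2 on obese replicate 1 and 75 on obese replicate 2. The share of all probe sets higher on either array was not counted. Of all 40 members, 18 were higher on control replicate 1 and 22 on control replicate 2. For obese replicates 1 and 2 the counts were 17 and 21. Of the 6 macrophage markers, 4 were higher on control replicate 2 and 3 on obese replicate 2. Among the 5 broad tetraspanins, 4 were higher on control replicate 2 and 3 on obese replicate 2. The markers listed for T cells were Cd3d, Lat, Lck and Thy1. They summed to 326.1 and 343.6 in obese tissue and to 574.0 and 386.8 in control tissue. Thy1 was listed both here and below among the broad antigens with another symbol, so the lists themselves do not treat it as limited to T cells. Its signals were 87.7 and 130.6 in obese tissue and 105.9 and 147.8 in control tissue. They were higher on replicate 2 of each group, whereas Cd3d, Lat and Lck were higher on replicate 1. Cd79b, the only B cell marker with a probe set, exceeded the floor on control replicate 1 alone, at 99.3 against 17.5 on the other control array and 13.8 and 8.7 in obese tissue. What differed between the control samples was not tested.

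**Figure D4:**
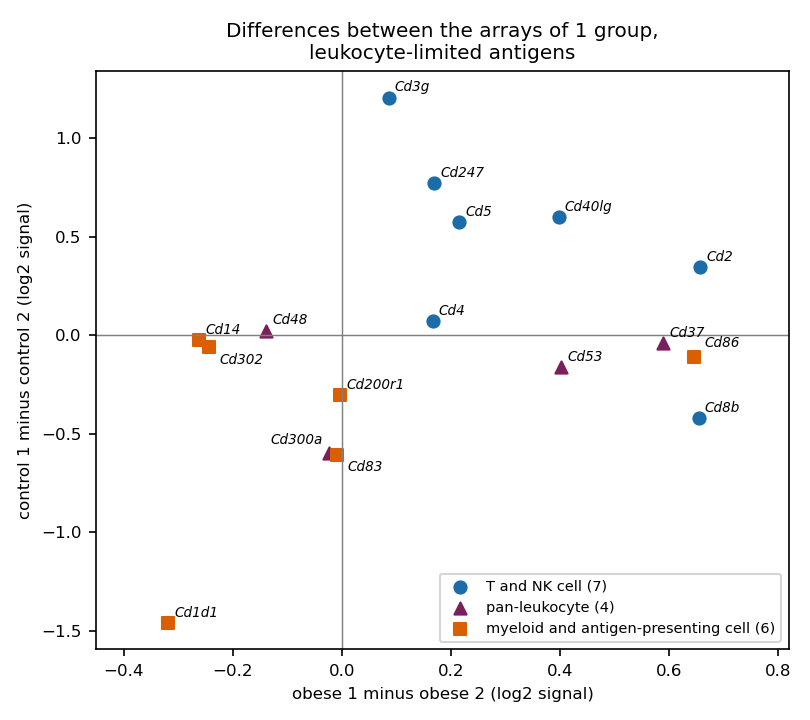
Difference between the arrays of 1 group for each of the 17 leukocyte-limited antigens: obese replicate 1 minus obese replicate 2 (horizontal axis) and control replicate 1 minus control replicate 2 (vertical axis), in log2 signal. The T and NK cell genes lie right of 0 and, apart from Cd8b, above 0, with Cd3g highest at 1.21, and the 6 myeloid and antigen-presenting cell genes lie below 0, with Cd1d1 lowest at -1.46.

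Antigens of myeloid and antigen-presenting cells were divided, 4 lower and 2 higher, where 57.5% of all probe sets were lower. Of these 6 genes, 3 were separated downwards and 1 upwards, against 24.4% and 15.6% of all probe sets. Their median was -0.15. Single arrays left out moved this median between -0.23 without control replicate 1 and -0.07 without control replicate 2. Cd83, a marker of mature dendritic cells, had signals of 244.0 and 245.6 in obese tissue and of 353.9 and 538.4 in control tissue. The obese arrays were alike and both lower (-0.83 ± 0.21, limma adjusted p = 0.467), and without control replicate 2 the difference was -0.53. Cd86, a costimulator of T cells, had 34.9 and 22.3 in obese tissue and 42.6 and 46.0 in control tissue, separated but close to the floor (-0.67 ± 0.27, limma adjusted p = 0.593). Without obese replicate 2 it was -0.34. Cd200r1, an inhibitory receptor of myeloid cells, had 41.7 and 41.8 in obese tissue and 42.5 and 52.4 in control tissue, groups that were separated by less than 1 unit (-0.18 ± 0.20).

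Cd14, the coreceptor for bacterial lipopolysaccharide on monocytes and macrophages, showed no separation. It had 559.9 and 670.9 in obese tissue and 662.1 and 672.9 in control tissue (-0.12 ± 0.14), and the difference was 0.01 without obese replicate 1. Cd302, a C-type lectin receptor of macrophages and dendritic cells, was higher on both obese arrays, with 377.6 and 447.0 against 329.8 and 343.7 in control tissue (0.29 ± 0.14, limma adjusted p = 0.650). Cd1d1, which presents lipids to natural killer T cells, had 55.5 and 69.2 in obese tissue and 17.0 and 57.2 in control tissue. Its value on control replicate 1 was under the floor, so the size of its difference (0.85 ± 0.48) depends on the floor, and without that array it was 0.12. The groups of Cd1d1 overlapped.

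Among the broadly expressed members, Cd44 had the most negative difference. This receptor for hyaluronan, which leukocytes and stromal cells share, had 161.7 and 152.3 in obese tissue and 234.3 and 296.0 in control tissue. Both obese arrays were lower (-0.75 ± 0.16, limma adjusted p = 0.429), and the second probe set was lower as well (-0.43 ± 0.18). Cd47, the signal that keeps macrophages from engulfing a cell, had 639.7 and 715.1 in obese tissue and 741.7 and 764.3 in control tissue (-0.15 ± 0.13). Its second probe set was separated too, with a difference of -0.38 ± 0.12.

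Cd99 and Cd99l2, related proteins through which leukocytes pass the endothelium, were both higher in obese tissue. Cd99 had 522.7 and 601.9 in obese tissue and 435.1 and 414.3 in control tissue. Cd99l2 had 222.6 and 224.4 in obese tissue and 179.1 and 166.3 in control tissue. The groups of both genes were separated, with differences of 0.40 ± 0.13 and 0.37 ± 0.13 (limma adjusted p = 0.532 and 0.563). Cd164, a sialomucin, had 1219.2 and 1435.6 in obese tissue and 1217.7 and 1127.3 in control tissue, separated by a narrow margin (0.18 ± 0.15). Cd276, also known as B7-H3, and Cd320, the receptor for transcobalamin, had overlapping groups and differences of -0.30 ± 0.26 and -0.12 ± 0.16. For Cd276, obese replicate 1 stood alone at 79.0, against 131.4 on the other obese array and 126.6 and 124.7 in control tissue.

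The complement regulators protect cells from their own complement system. Cd59b, which blocks the membrane attack complex, had 920.0 and 1247.4 in obese tissue and 902.5 and 917.2 in control tissue (0.24 ± 0.18), higher on both obese arrays but by 0.02 without obese replicate 2. Cd55, which speeds the decay of the convertases, had 191.8 and 153.4 in obese tissue and 161.1 and 138.1 in control tissue (0.20 ± 0.18), while its second probe set gave -0.04 ± 0.21. Cd46, a cofactor for complement inactivation that mice make mainly in the testis, had 49.6 and 41.1 in obese tissue and 59.0 and 48.6 in control tissue (-0.25 ± 0.22). These were the lowest signals of the broad list, and the place of Cd46 in that list is open to question. Cd55 and Cd46 had overlapping groups.

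Antigens of vessels and stroma were all 3 lower in obese tissue, in a table where 57.5% of probe sets were lower. Cd200, the ligand of CD200R1 on endothelium, neurons and some leukocytes, had 215.7 and 158.2 in obese tissue and 260.4 and 273.9 in control tissue, lower on both obese arrays (-0.53 ± 0.18, limma adjusted p = 0.555). Without obese replicate 2 its difference was -0.31. Cd93, a receptor of endothelial and myeloid cells, had 44.2 and 40.2 in obese tissue and 48.0 and 46.2 in control tissue, separated with 1 probe set (-0.16 ± 0.19) and overlapping with the other (0.02 ± 0.27). Cd248, endosialin of pericytes and fibroblasts, had 487.2 and 539.6 in obese tissue and 564.8 and 507.3 in control tissue, groups that overlapped (-0.06 ± 0.13, and 0.02 with median centring).

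Of the antigens shared by leukocytes and some other cells, Cd52 was at least 2.13-fold lower in obese tissue. This small lipid-anchored glycoprotein of lymphocytes and of the epididymis had 20.6 and 18.7 in obese tissue, both under the floor, and 32.1 and 60.9 in control tissue. Cd52 was kept only through its control arrays, so a lower value in obese tissue followed from the choice (limma adjusted p = 0.515). Without control replicate 2 its log2 difference from the floor was -0.63. Cd40, the receptor of Cd40lg on B cells and antigen-presenting cells, exceeded the floor on 1 array of each group, with 8.3 and 40.7 in obese tissue and 24.9 and 3.8 in control tissue, and showed no order. Cd2bp2, an intracellular protein named for binding CD2, had 224.8 and 262.8 in obese tissue and 189.4 and 290.7 in control tissue, and the control arrays lay on either side of the obese ones.

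The second-highest signal was 24.9 for Cd40 and 25.5 for Cd244l1, the members nearest to the floor, and 18.1 for Cd24, 15.7 for Cd3e and 15.2 for Cd28, the nearest that were not kept. Cd80, the remaining candidate that was not kept, lay between 2.2 and 3.2 on all arrays. With Cd3e, Cd28 and Cd80, 3 of 20 leukocyte-limited candidates were thus not counted. No counted leukocyte-limited gene was under the floor on both arrays of a group.

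Many antigens with a CD number are known by another symbol, and a leukocyte-limited and a broad list were formed from these. No class was set apart here for antigens of vessels and stroma or for mixed ones. The broad list is thus defined more widely than that of the Cd-symbol genes. Of 42 leukocyte-limited and 53 broad antigens listed, 23 and 48 were above the floor. The 23 leukocyte-limited antigens were lower in obese tissue for 19 genes, with 13 separated downwards (56.5%) and 1 upwards (4.35%), against 24.4% and 15.6% of all probe sets, and their median was -0.43. The 13 include Itgad, which passed the floor only through its control arrays. The 48 broad antigens were lower for 26 genes and higher for 22, with 8 separated downwards (16.7%) and 11 upwards (22.9%), and their median was -0.05. These lists were read on the same 4 arrays, so they are not independent of the lists above.

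The most negative differences in this second set belonged to Itgad, Spn, Alcam, Ccr2 and Ptprc. The leukocyte integrin chain Itgad had 7.7 and 9.5 in obese tissue, both under the floor, and 52.1 and 105.2 in control tissue, at least 3.56-fold lower in obese tissue. As it was kept through its control arrays alone, the direction followed from the choice. Leukosialin, Spn, had 59.6 and 27.1 in obese tissue and 130.5 and 146.0 in control tissue (-1.78 ± 0.38), and the chemokine receptor Ccr2 had 39.4 and 43.6 against 69.6 and 95.6 (-0.98 ± 0.23). All 3 were separated. The broad adhesion molecule Alcam differed by -1.23 ± 0.31 and the phosphatase CD45, Ptprc, by -0.87 ± 0.15. The highest differences belonged to Epcam (1.48 ± 0.97), Prnp (0.69 ± 0.28) and Mme (0.67 ± 0.35). Without obese replicate 2, Prnp differed by 0.27 and Mme by 0.12. Epcam, an epithelial adhesion molecule, reached 198.2 on obese replicate 1 alone, against 13.8 on obese replicate 2 and 25.4 and 20 in control tissue, and without obese replicate 1 its difference was -0.14. The mesothelial sum was highest on the same array. Adjusted p in limma was between 0.402 and 0.732 for these 8 genes, so that none passed.

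**Figure D5:**
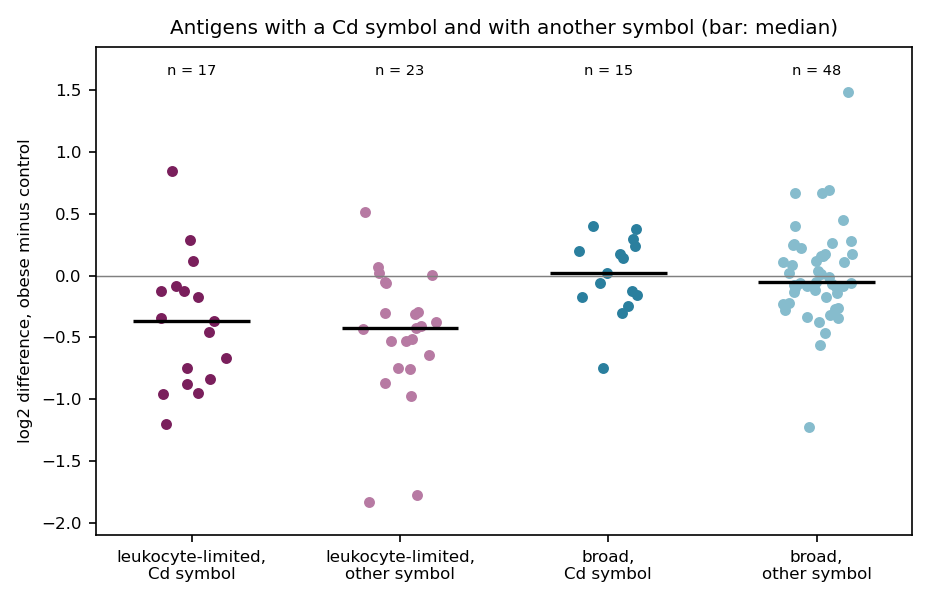
Log2 difference, obese minus control, of 17 and 23 leukocyte-limited antigens and of 15 and 48 broadly expressed antigens, with a Cd symbol or another symbol, 1 point per gene and the median as a bar. The medians are -0.37 and -0.43 for the leukocyte-limited antigens and 0.02 and -0.05 for the broad ones, and the ranges of all 4 lists overlap. Among antigens with another symbol, no class for vessels and stroma or for mixed antigens was set apart from the broad one.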

How the data were processed

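Total RNA of 4 samples was measured on single-colour arrays. The deposited values are intensities, 1 for each probe set on each array, on a linear scale between 0 and 5022.9. The authors' deposited intensities had been scaled, since the means after trimming 2% at each end lay between 150.026 and 150.03. How the authors scaled them, and with which software, is not given in the sources used here.

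Of 15923 probe sets, 57 controls were left out. The platform annotation paired 12783 of the others with 1 symbol, and only these were named; 312 had more than 1 symbol and 2771 had no symbol. All 40 member symbols were found by Entrez identifier in RefSeq's GRCr8 table, and 0 had changed. Values were raised to 20.8, the 20th percentile over all arrays, and taken to log2. Probe sets above it on at least 2 of 4 arrays were fitted with limma 3.58.1 in R 4.3.3 (variance trend, two-sided, obese minus control, Benjamini-Hochberg over 12929 probe sets, threshold 0.05). An exact permutation test of 2 against 2 arrays cannot go below a two-sided p of 0.333, and none was run. Promoter windows were RefSeq's, the first listed per gene. With both arrays of a group under the floor, the fold is a bound against the floor.

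Members and class lists were chosen with earlier results of these data known. All members are named, with values on every array for Cd53, Cd37, Cd4, Cd48, the tetraspanins, members with an unadjusted p under 0.05 or separated at least 2-fold, the 2 brightest of each class and those whose probe sets disagree in sign; others were added after their values were seen. Of the second set, the 5 lowest and 3 highest differences are named. The code was tested on simulated data. Alternatives were other floors, scalings, filters and variance models, a replicate block, single arrays left out and the mean over probe sets.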

Additional observations from a re-analysis of the deposited data

How the results depend on the processing

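The leukocyte-limited median stayed below 0 and below the broad median under every alternative run. With single arrays left out, it lay between -0.541 and -0.256, the broad median between 0.016 and 0.065, and the gap between -0.584 and -0.272. The number separated downwards then lay between 9 and 12 for leukocyte-limited and 3 and 5 for broad genes, and 6 to 8 broad genes were separated upwards. Of all probe sets, 36.1% to 46% were then separated downwards and 27% to 32.1% upwards, since 2 arrays are easier to separate from 1. With all 4 arrays required above the floor, an alternative also added after the data were seen for the leukocyte-limited genes alone, the median was -0.563 and the gap -0.586 over 14 genes. Without the T and NK cell genes, also an alternative chosen after seeing the data, the median was -0.421 and the gap -0.444. Of the 10 genes left, 6 were separated downwards, against 24.4% of all probe sets. A floor at the 40th percentile left 11 leukocyte-limited genes, 5 of them separated downwards, against 24.5% of all probe sets. Median centring gave a broad median of 0.102 and 1 broad gene separated downwards, where 16.9% of all probe sets were. Over all probe sets, 3 passed with a pseudocount of 32 in place of the floor, 6 without the filter on dim probe sets and 1 without the variance trend, none of them a member, and the cause was not tested. The arrays share only a number across groups: deviations of same-numbered arrays correlated with r = 0.048, and with the replicate block 0 probe sets passed, the leukocyte-limited median stayed at -0.368, and the lowest adjusted p of a member in limma was 0.153. Of 407 values of the 26 genes named by rule, 392 kept their direction and 15 turned. Cd81 turned with quantile normalization (-0.014) and cyclic loess (-0.049), and Cd63 (0.016) and Cd248 (0.017) with median centring. The others turned with single arrays left out, with ranges from -0.035 to 0.08 for Cd81, from -0.257 to 0.13 for Cd63, from -0.14 to 0.015 for Cd248, from -0.258 to 0.36 for Cd2bp2, from -0.254 to 0.0074 for Cd14, from -0.13 to 0.839 for Cd40 and from -0.395 to 0.051 for Cd82. Of all 40 members, 13 turned without at least 1 of the arrays. Signals near the floor (Cd2, Cd40lg, Cd40, Cd52, Cd244l1, Cd1d1) have no order below it.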
